A study of Homo sapiens with 9 samples.

Results

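C15orf48, NDUFA4 and NDUFA4L2 are the 3 genes of a small family of mitochondrial proteins, and their rows were read out of 78894 gene identifiers in RNA-seq of CAL27, a cell line derived from a tongue squamous cell carcinoma. C15orf48 was selected on its TPM in the C9ko cells, which was known from earlier results of these data, and the other members were chosen as its paralogs. The C9ko values of the 3 genes are therefore given as a description, with a standard error and no test. The study edited CAL27 cells with CRISPR in work on an enhancer of head and neck squamous cell carcinoma. Its 4 groups are Control (3 samples, labelled as CAL27 without treatment) and the knockouts A2ko, A8ko and C9ko (2 samples each), all from the same line in the same medium. The labels name neither the edited sequence nor whether a knockout is clonal or pooled, so no targeted gene could be checked. The A2ko files were identical to each other and so were the A8ko files, and each pair was counted as 1 library, which leaves 7 distinct libraries. Nothing in the labels says that the samples came from separate cultures, so p-values measure the spread between these libraries only.

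Complex IV, or cytochrome c oxidase, is the last enzyme of the respiratory chain and passes electrons to oxygen. NDUFA4 was first assigned to complex I and is now known as a subunit of complex IV. C15orf48, also called NMES1 or MOCCI, is an inducible paralog that can take the place of NDUFA4 in complex IV, and it is known for its rise under inflammatory signals and for its level in the mucosa of the oesophagus. NDUFA4L2 is known as a gene induced by hypoxia-inducible factor 1. The C15orf48 transcript is also the host of the microRNA miR-147b, for which NDUFA4 is a known target.

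The sequences below show how the locus links the family, through the microRNA made from it, the NDUFA4 stretch that matches this microRNA, and the promoter of the member that differed most. The MIR147B hairpin (chr15:45433050-45433129, plus strand) lies in the last exon of C15orf48, after the stop codon. In the microRNA capitals mark the seed, bases 2 to 8. In the NDUFA4 3′ UTR (chr7:10933566-10933595, minus strand, GRCh38, from GENCODE release 29) capitals mark the letters complementary to the seed. In the 250 bases before the RefSeq start of C15orf48 (chr15:45430360-45430609, plus strand, GRCh38.p14) capitals mark TATATAA, and on either strand ACGTG and its near relative GCGTG.
hsa-miR-147b-3p: gUGUGCGGaaaugcuucugcu
NDUFA4 seed match: ttccagaagccacatCCGCACAattttcca
C15orf48 promoter: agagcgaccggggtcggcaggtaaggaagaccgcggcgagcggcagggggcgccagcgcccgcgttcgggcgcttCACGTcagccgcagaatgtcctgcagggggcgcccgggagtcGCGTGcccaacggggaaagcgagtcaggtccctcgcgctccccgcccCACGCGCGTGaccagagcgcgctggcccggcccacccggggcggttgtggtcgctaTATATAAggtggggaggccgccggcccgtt

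The NDUFA4 3′ UTR of 1685 bases held 1 seed match, and those of C15orf48 (433 bases) and NDUFA4L2 (658 bases) held 0. Among 3′ UTRs within 20% of the length of that of NDUFA4, 2.57% held this match. These polyA libraries do not measure the mature microRNA, and the MIR147B row stood at 0.0188 to 0.0429 TPM (a gene's share of the transcripts in a library, scaled for transcript length).

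All 3 genes were found among the RefSeq promoter windows, which run from 250 bases before to 50 bases after the start. The window of C15orf48 held TATATAA, the letters of a core promoter element, from -30 to -24, and these were found in 2.73% of 27305 windows. TATATAA was added to the search after the C15orf48 window had been seen. The core of the hypoxia response element (ACGTG, or with G in its first place GCGTG) was found at 4 places for C15orf48, 2 for NDUFA4L2 and 0 for NDUFA4, and 48.4% of all windows held at least 1. The kappaB consensus (10.8% of all windows) and the AP-1 motif TGANTCA (7.76%) gave 0 matches in each of the 3 windows, with both strands searched.

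Over the coding sequence, C15orf48 and NDUFA4 were identical at 59.1% of 230 aligned bases, C15orf48 and NDUFA4L2 at 58.8% of 233, and NDUFA4 and NDUFA4L2 at 66.4% of 241. The coding sequences hold 83 codons in C15orf48, 81 in NDUFA4 and 87 in NDUFA4L2. The longest stretch of identical bases between any pair of the 3 transcripts was 14 bases. The NDUFA4 pseudogenes NDUFA4P1 (0.208 to 2.08 TPM) and NDUFA4P2 (listed at 0 in all 7 libraries) were far below NDUFA4.

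C15orf48 (ENSG00000166920, chromosome 15, 45430529 to 45448761, plus strand) stood at 2.77, 2.26 and 2.76 TPM in the Control libraries. It was at 5.62 TPM in A2ko, at 23.5 TPM in A8ko, and at 137 and 144 TPM in C9ko. The order was therefore Control, A2ko, A8ko, C9ko, with the single A2ko and A8ko libraries between the Control and C9ko libraries. On the log2 scale the gap between the C9ko libraries was small beside the gaps between groups. Against the Control mean of 2.60 ± 0.291 TPM (SD, n = 3), the TPM ratio was 54.1 in C9ko, 9.06 in A8ko and 2.16 in A2ko. On the log2(TPM + 1) scale, where changes at low TPM come out too small, the differences were 5.30 (SE 0.09), 2.77 and 0.88 in the same order. A2ko and A8ko have 1 distinct library each, and these differences have no replicate check.

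Ranked by this difference among the 17100 tested genes (at least 1 TPM in at least 2 distinct libraries), C15orf48 was at place 833 from the top in A2ko, 13 in A8ko and 1 in C9ko. Its A8ko level was outside the Control range by at least 1 log2 unit, which held for 2.05% of tested genes in that direction, and its A2ko level was above the range by less than that. By this measure of range and distance, 5.07% of tested genes were outside in A2ko (3.54% higher, 1.53% lower). The share was 4.73% in A8ko (2.68% lower) and 5.11% in C9ko (3.33% higher, 1.78% lower). A Control library held out against the others gave 0.614%, 0.661% and 0.643%. Lying above every Control library by any amount is common in these data: it held for 41.1% of tested genes in C9ko, 46.9% in A8ko and 50.4% in A2ko, and for 17.0% in every knockout library at once. The knockouts were also shifted as a whole, with median differences over the tested genes of 0.11 (C9ko), 0.09 (A8ko) and 0.12 (A2ko), which median-of-ratios scaling brought to -0.0053, 0.0031 and 0.005.

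**Figure D1:**
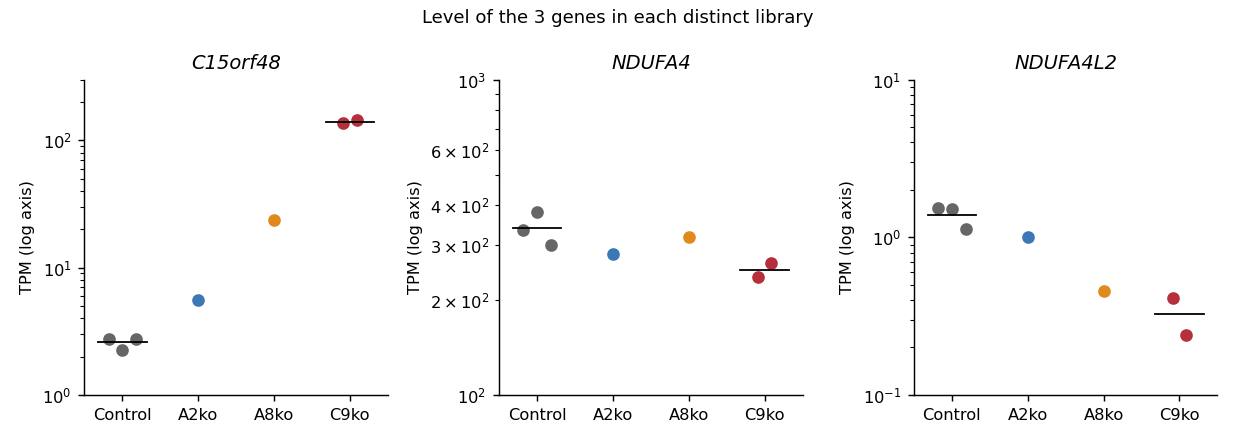
TPM of C15orf48, NDUFA4 and NDUFA4L2 on log axes, with 1 point per distinct library and black lines at the means of Control (n = 3) and C9ko (n = 2). C15orf48 climbs from 2.26 to 2.77 TPM in Control to 137 and 144 TPM in C9ko, whereas NDUFA4 stays between 237 and 381 TPM and NDUFA4L2 between 0.239 and 1.53 TPM.

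NDUFA4 (ENSG00000189043, chromosome 7, 10931951 to 10940256, minus strand) was the most abundant member in every library. It stood at 334, 381 and 299 TPM in Control, 279.7 TPM in A2ko, 316 TPM in A8ko, and 237 and 261 TPM in C9ko. The C9ko libraries and A2ko lay below all Control libraries, and A8ko lay among them. The C9ko mean of 249 TPM was 0.737 of the Control mean of 338 ± 41.1 TPM (SD, n = 3), a log2 difference of -0.43 (SE 0.11). The difference was -0.27 in A2ko and -0.09 in A8ko. Below every Control library were 16.4% of tested genes in C9ko and 26.3% in A2ko, and a difference of this size stood at place 1377 from the bottom in C9ko.

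NDUFA4L2 (ENSG00000185633, chromosome 12, 57234903 to 57240715, minus strand) was weakly expressed in all groups, at 1.53 TPM or less. It stood at 1.53, 1.51 and 1.13 TPM in Control, 0.998 TPM in A2ko, 0.456 TPM in A8ko, and 0.411 and 0.239 TPM in C9ko. Every knockout library was below every Control library, and A8ko differed little from the higher C9ko library. Only the Control libraries reached 1 TPM, so NDUFA4L2 passed the filter through them and its side was fixed. The 4.61% of tested genes with every knockout library below is therefore no measure for it. The log2 differences were -0.25, -0.71 and -0.85 (C9ko SE 0.17), and the TPM ratios to the Control mean of 1.39 ± 0.226 (SD, n = 3) were 0.719, 0.329 and 0.234. Depth is unknown for TPM, so the counting error of a gene at this level cannot be given.

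Because C15orf48 can replace NDUFA4, their transcripts were set side by side on the per-length TPM scale. C15orf48 made up 0.823%, 0.591% and 0.914% of the summed TPM of this pair in Control, 36.7% and 35.5% in C9ko, 6.94% in A8ko and 1.97% in A2ko. NDUFA4 was thus 108 to 168 times as abundant as C15orf48 in Control, 49.8 times in A2ko, 13.4 times in A8ko, and 1.73 and 1.82 times in C9ko. The summed TPM moved far less. The Control libraries had 337, 383 and 302 TPM, a mean of 341 ± 40.8 (SD, n = 3), against 375 and 405 TPM for C9ko, 339 for A8ko and 285 for A2ko. The first C9ko library lay within the Control range of the sum and the second above it. NDUFA4L2 was at most 0.451% of the sum of all 3 genes in any library.

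**Figure D2:**
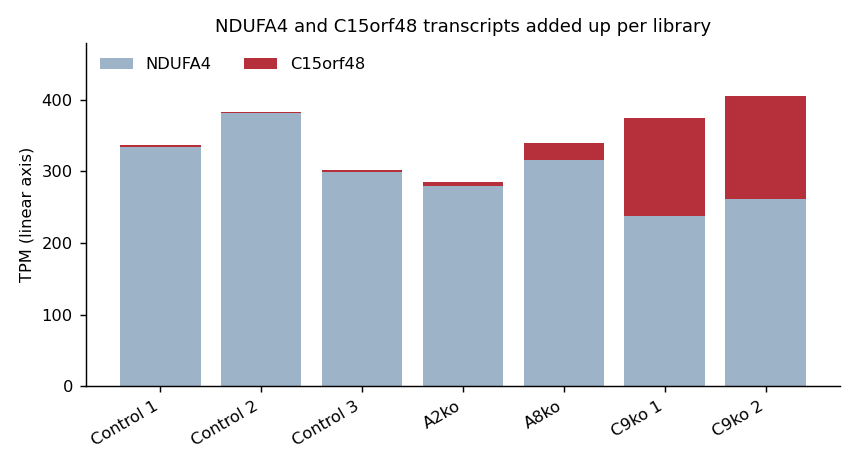
TPM of NDUFA4 (blue) and C15orf48 (red) stacked on a linear axis for each distinct library. The red part is under 1% of the bar in the 3 Control libraries, 6.94% in A8ko and 36.7% and 35.5% in the C9ko libraries, while the total stays between 285 and 405 TPM.

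NDUFA4 was then set beside the other subunits of complex IV. Of 17 nuclear subunit genes, 12 were tested, and limma called 1 of them at an adjusted p under 0.05 in C9ko against Control, where 29.5% of all tested genes were called. That gene was COX6C, which fell by 0.31 on the log2 scale (SE 0.08, limma adjusted p 0.0323). It stood at 427, 444 and 386 TPM in Control and 321 and 353 TPM in C9ko. No subunit was called higher by limma, and at an unadjusted p under 0.05 there were 0 higher and 4 lower. The call of COX6C was lost without the first C9ko, the second C9ko or the first Control library, and under either rescaling of TPM 4 nuclear subunits were called lower.

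NDUFA4 had the lowest log2 difference in C9ko when placed among the 11 nuclear subunits with at least 5 TPM in Control. These ranged from -0.31 (COX6C) to 0.06 (COX7A2L, a supercomplex factor), with a median of -0.15. NDUFA4 stood at -0.43 (SE 0.11), and its gap to COX6C was below its Control SD of 0.17 log2 units. COX4I1, COX7B, COX7C, COX6B1 and COX5B lay between -0.26 and -0.15, and COX6A1, COX8A, COX5A and COX7A2 between -0.05 and 0.05. In A2ko NDUFA4 was again lowest, at -0.27 against -0.26 for COX4I1, a gap far below the Control SD of NDUFA4 (0.17 log2 units), and in A8ko it was at place 5 of the 12, between COX5A at -0.28 and COX8A at 0.29. COX4I2, COX6A2 and COX7B2 were listed at 0 in all libraries, and COX6B2, COX7A1 and COX8C did not exceed 2.31 TPM.

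**Figure D3:**
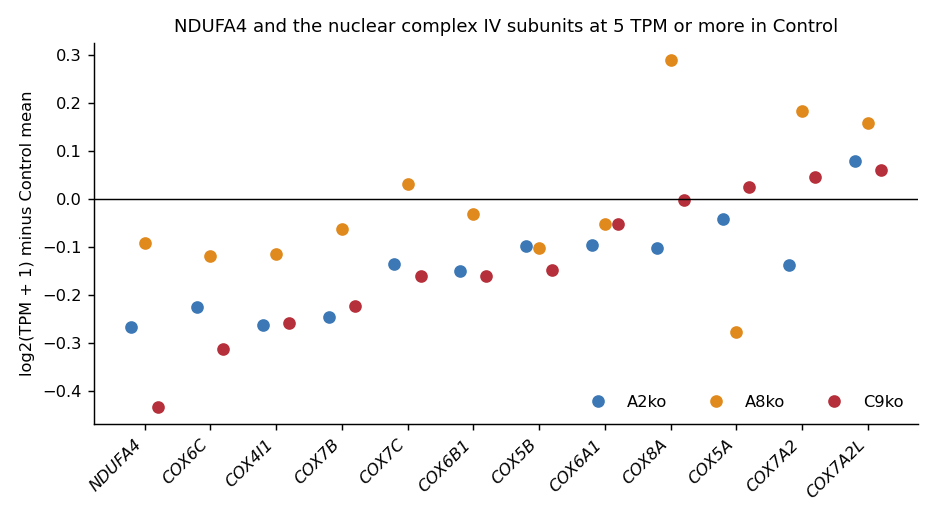
Difference from the Control mean in log2(TPM + 1) for NDUFA4 and the 11 nuclear complex IV subunits with at least 5 TPM in Control, with 1 point per knockout (C9ko is the mean of 2 libraries). NDUFA4 has the lowest C9ko value, -0.43, and the subunits lie between -0.31 and 0.06 in C9ko.

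The catalytic core of complex IV is encoded by mitochondrial DNA. MT-CO1, MT-CO2 and MT-CO3 had a median log2 difference of -0.24 in C9ko, -0.20 in A8ko and 0.19 in A2ko. The limma fit called 0 of the 3 in C9ko, with 1 lower at an unadjusted p under 0.05. MT-CO2 stood at 26970, 31624 and 26713 TPM in Control, 23036 and 19304 in C9ko, 21111 in A8ko and 32277 in A2ko, so A2ko lay above and the other knockouts below the Control range. MT-CO1 lay on the same sides, and so did MT-CO3 except in A8ko, where it was within the Control range (38269 TPM). Of all tested genes 50.4% lay above every Control library in A2ko, and 26.4% lay below in A8ko and 16.4% in C9ko. The share of all mitochondrial transcripts was 23.1% to 26.9% of TPM in Control, below that range in C9ko (20.2% and 17.9%) and A8ko (20.6%) and within it in A2ko (25.2%), and its part in the values of the nuclear genes was not tested beyond the rescaling to nuclear genes.

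The list of complex IV assembly factors includes genes that insert its copper and haem or join its subunits. Of its 29 genes limma called 8 higher and 0 lower in C9ko, with 9 higher and 0 lower at an unadjusted p under 0.05. The share called higher, 27.6%, was near the 22.0% of all tested genes. With median-of-ratios scaling the count was 4 higher and 2 lower, and without the first C9ko or the second Control library it was 5. COX20 stood at 5.65 ± 1.04 TPM (SD, n = 3) in Control and at 24.8 and 13.8 TPM in C9ko, a rise of 1.56 (SE 0.24, limma adjusted p 0.00359). HIGD1A, a hypoxia-induced protein that associates with complex IV, rose by 1.08 (limma adjusted p 0.00336), from 42.9 ± 3.08 TPM (SD, n = 3) to 74.9 and 112.8 TPM. COA6 rose by 0.58 (limma adjusted p 0.0408) and CMC1 by 0.45 (limma adjusted p 0.00677).

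Complex I, to which NDUFA4 was once assigned, had 37 nuclear subunits tested, with 3 called higher (8.11%) and 1 lower (2.7%) in C9ko by limma, both under the 22.0% and 7.42% of all tested genes. NDUFA12 rose by 0.53 (limma adjusted p 0.00327), from 266 ± 17.4 TPM (SD, n = 3) to 400.2 and 367 TPM. NDUFB6 rose by 0.30 (limma adjusted p 0.0378) and NDUFA2 by 0.26 (limma adjusted p 0.0191). NDUFB10 fell by 0.48 (limma adjusted p 0.00927), from 187 ± 19.5 TPM (SD, n = 3) to 130.3 and 137 TPM. The median of the list was -0.01 in C9ko, -0.04 in A2ko and -0.01 in A8ko. With median-of-ratios scaling, 1 was called higher and 5 lower, and without the first C9ko library 1 subunit was called in all.

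C15orf48 is known to be induced by NF-kB, a transcription factor of inflammatory signalling, so NF-kB targets were described beside it. This list, like the other lists here, was chosen with earlier results of these data known. Its counts are therefore a description and not independent support. Of 30 such genes 27 were tested, and in C9ko limma called 22 higher and 0 lower (24 higher and 0 lower at an unadjusted p under 0.05), against 22.0% and 7.42% of all tested genes. The list median was 0.998 in C9ko, 1.08 in A8ko and 0.20 in A2ko. In A8ko 15 of the 27 were above the Control range and at least 1 log2 unit from its mean. By the same measure 0 were lower, against 2.05% higher and 2.68% lower of all tested genes. In A2ko 1 gene was higher by that measure (ICAM1) and 1 lower (IL1A), near the 3.54% and 1.53% of all tested genes.

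The cytokine CSF2 stood at 0.203, 0.530 and 0.679 TPM in Control, 17.6 and 18.3 in C9ko, 35.3 in A8ko and 0.740 in A2ko. Its log2 difference in C9ko was 3.70. It reached 1 TPM in A8ko and C9ko only, so it passed the filter through these groups and its direction was fixed. IL6 stood at 13.02 ± 0.978 TPM (SD, n = 3) in Control and 109.7 and 122 TPM in C9ko, a rise of 3.06 (SE 0.08, limma adjusted p 7.05e-06), and was at 130.5 TPM in A8ko and 17.6 TPM in A2ko. SAA1, an acute-phase protein, rose by 2.56 (limma adjusted p 1.77e-05) to 429 and 522 TPM from 79.7 ± 5.01 (SD, n = 3), with 286 TPM in A8ko and 112 TPM in A2ko. TNF rose by 2.41 (limma adjusted p 3.49e-05) to 11.3 and 12.2 TPM from 1.41 ± 0.244 (SD, n = 3), with 16.4 TPM in A8ko and 2.95 TPM in A2ko. CSF2, IL6 and TNF were higher in A8ko than in the C9ko libraries, while C15orf48 and SAA1 were higher in C9ko, and differences between knockouts were not tested.

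**Figure D4:**
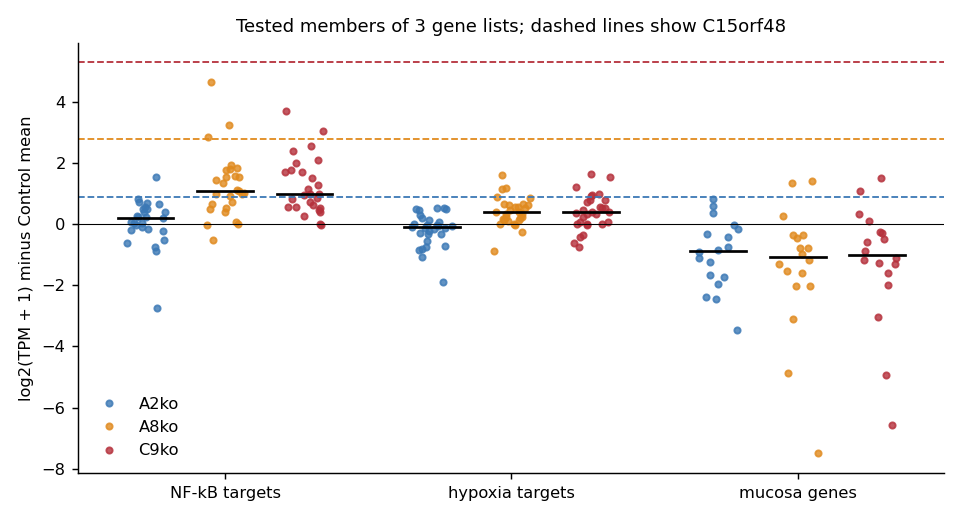
Difference from the Control mean in log2(TPM + 1) for the tested NF-kB targets (27), hypoxia targets (29) and oesophageal and oral mucosa genes (18) in each knockout, with black lines at the medians and dashed lines at C15orf48 in the same colours. The NF-kB medians are 0.20, 1.08 and 0.998 in A2ko, A8ko and C9ko, and the C15orf48 value of 5.30 in C9ko is above every point shown.

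NDUFA4L2 is known as a hypoxia target and was set beside a list of such genes. Of 29 tested hypoxia targets limma called 16 higher (55.2%) and 4 lower (13.8%) in C9ko, against 22.0% and 7.42% of all tested genes, with a list median of 0.38 in C9ko, 0.40 in A8ko and -0.08 in A2ko. The carbonic anhydrase CA9 stood at 19.5, 16.9 and 18.3 TPM in Control and 58.2 and 60.6 TPM in C9ko, a rise of 1.65 (SE 0.08; limma adjusted p 3.48e-05), with 41.8 TPM in A8ko and 9.99 TPM in A2ko. The secreted lipase inhibitor ANGPTL4 rose by 1.55 (limma adjusted p 0.000818), the collagen hydroxylase subunit P4HA2 by 1.22 (limma adjusted p 6.14e-05) and the glycolytic regulator PFKFB4 by 0.97 (limma adjusted p 0.00183). NDUFA4L2 lay below every Control library in all 3 knockouts, a side fixed by its passing the filter through Control alone. Of the 29 list genes 20 lay above every Control library in C9ko and 4 below. In A8ko 23 lay above and 2 below, and in A2ko 8 above and 17 below. Among all tested genes 41.1% lay above and 16.4% below in C9ko. The shares were 46.9% and 26.4% in A8ko, and 50.4% and 26.3% in A2ko. The 4 below in C9ko were CA12, ADM, NDRG1 and DDIT4.

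The alias of C15orf48, NMES1, stands for its expression in normal oesophageal mucosa. Genes of that mucosa and of the mouth were mostly lower in every knockout, also in A2ko, where C15orf48 was at 5.62 TPM. Of 18 tested genes limma called 12 lower and 3 higher in C9ko, against 7.42% and 22.0% of all tested genes, and the median was -0.995 in C9ko, -1.07 in A8ko and -0.88 in A2ko. The keratin KRT4 fell by 6.58 (limma adjusted p 1.96e-06), from 199 ± 2.82 TPM (SD, n = 3) to 1.37 and 0.857 TPM, and KRT13 by 4.95 (limma adjusted p 5.7e-06), from 93.6 ± 4.40 TPM (SD, n = 3) to 1.68 and 2.497 TPM. KRTDAP fell by 3.03 (limma adjusted p 0.000184) and SCEL, a cornified envelope precursor, by 1.97 (limma adjusted p 8.93e-05). SPRR3, CNFN and CSTB were the 3 called higher, named after their values were seen. SPRR3 reached 1 TPM in A8ko and C9ko only. IVL, SBSN, SPINK5 and A2ML1, which were called lower, reached it in Control only. The filter thus fixed the side of these genes, also named after their values were seen. KRT13 stood at 83.1 TPM in A2ko, just below the lowest Control library (88.7 TPM), whereas KRTDAP was at 0.462 TPM there. The keratins KRT5 and KRT14, given below, were lower with this list.

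The neighbourhood of each member was described to see whether its difference was shared by adjacent genes. Within 1000000 bases of the C15orf48 start, 18 other genes were tested, and limma called 4 in C9ko, each of them higher, where 22.0% of all tested genes were higher and 7.42% lower, with a median difference of 0.05. The 4 were SPATA5L1, an AAA-type ATPase gene just upstream, SLC30A4-AS1, SQOR and B2M. SPATA5L1 stood at 14.4, 10.8 and 13.1 TPM in Control and 19.3 and 24.2 TPM in C9ko, a rise of 0.72 (limma adjusted p 0.0096). SLC30A4-AS1 stood at 0.125, 0.123 and 0.181 TPM in Control and 1.18 and 1.49 TPM in C9ko, a difference of 1.03. It was at 0.482 TPM in A8ko and 0.117 in A2ko. Only the C9ko libraries reached 1 TPM, so this gene passed the filter through them and its call could only be higher. Its span starts inside that of C15orf48 on the same strand, and reads of the overlap cannot be told apart. SQOR, the mitochondrial sulfide quinone oxidoreductase, starts 200619 bases away and is named after its values were seen. Its level was 90.3, 82.2 and 80.3 TPM in Control and 143.9 and 148 TPM in C9ko, a rise of 0.79 (limma adjusted p 0.000377), with 92.6 TPM in A8ko and 49.5 TPM in A2ko.

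Among the nearest genes, SLC30A4, a zinc transporter, and BLOC1S6, a subunit of a lysosome biogenesis complex, differed by 0.26 and 0.09 in C9ko and were not called. GATM, the first enzyme of creatine synthesis, was not called in C9ko (0.10) and stood at 31.4 TPM in A2ko against 8.39, 7.63 and 6.92 TPM in Control. In A8ko 13 of the 18 neighbours lay below every Control library, where 26.4% of all tested genes did, with a median of -0.40, while C15orf48 in the same library was 2.77 above Control. The lower genes included the oxidase DUOX2 (-1.05), the oxidase maturation factor DUOXA1 (-0.91) and GATM (-0.75). The DUOX genes were named after their values were seen.

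**Figure D5:**
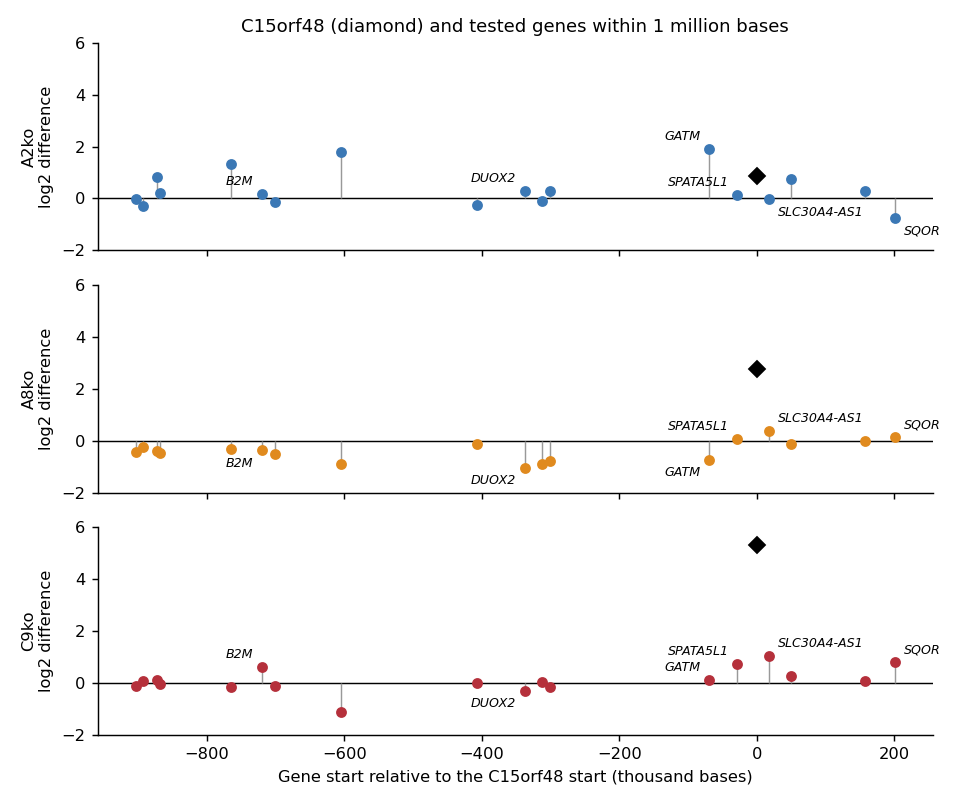
Difference from the Control mean in log2(TPM + 1) for C15orf48 (black diamond) and the 18 other tested genes within 1000000 bases, by distance of their starts in kilobases, with 1 panel per knockout. C15orf48 stands at 0.88, 2.77 and 5.30, and most upstream genes lie below 0 in the A8ko panel.

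Around NDUFA4 the only tested gene within 1000000 bases was PHF14, a chromatin reader, at a difference of 0.07 in C9ko, which was not called. Within 200000 bases of NDUFA4L2, limma called 1 of 8 tested genes higher (NEMP1) and 4 lower in C9ko, against 22.0% and 7.42% of all tested genes. The lower genes were R3HDM2 (-0.57), LRP1 (-0.99), NXPH4 (-0.44) and SHMT2 (-0.35, limma adjusted p 0.00542), the mitochondrial serine hydroxymethyltransferase. These 5 genes were named after their values were seen. Over 1000000 bases the count was 12 higher and 6 lower of 57. The span of SHMT2, which stood at 134 to 185 TPM, overlaps the end of NDUFA4L2 on the opposite strand. Whether reads of this overlap were assigned by strand is not given.

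The tested genes with a mean of at least 5 TPM whose log2 levels followed C15orf48 most closely over the 7 libraries were WDR6 (Pearson's r 0.999), the receptor kinase MST1R (0.998), the plasminogen activator PLAT (0.997), TENT5A (0.996) and the exporter ABCC4 (0.996), out of 10966 compared. MST1R stood at 13.02, 12.0 and 12.2 TPM in Control, 33.7 and 36.1 in C9ko, 22.5 in A8ko and 14.3 in A2ko. Their order of groups was the same as for C15orf48, with smaller steps. For NDUFA4L2 the closest were POLR2J3 (r 0.991), CERS4 (0.982), POU2AF3 (0.975), FABP5P7 (0.970) and RPS3AP6 (0.969), the last pair being pseudogenes. POU2AF3 stood at 15.1, 13.3 and 12.5 TPM in Control, 1.34 and 0.846 in C9ko, 1.13 in A8ko and 9.36 in A2ko. The level of NDUFA4 spanned 0.68 log2 units over the libraries, too little for such a ranking. With 4 groups in 7 libraries, such values describe the order of groups.

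Since 298 tested genes have the miR-147b seed match in their 3′ UTR, their counts were compared with those of genes without it, a description added after the data were seen. In C9ko 8.72% were called lower and 26.2% higher, against 7.32% and 26.5% of 11988 genes without the match, and the median differences were 0.13 and 0.13. NDUFA4 is among the 298.

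Markers of other cell types were read because C15orf48 is also known from macrophages. The epithelial markers EPCAM, CDH1, TP63, SFN, KRT5 and KRT14 were present in all libraries. KRT5 and KRT14 were lower in every knockout library, and CDH1 lay above every Control library in each knockout. EPCAM and SFN lay above in A8ko and C9ko and below in A2ko. TP63 lay above in C9ko and below in A2ko and A8ko. In C9ko limma called CDH1 higher (170 and 177 TPM against 100 to 106) and KRT5 and KRT14 lower. The sum of the 6, mostly these keratins, was 14015 to 14970 TPM in Control. It was 8721 and 8613 in C9ko, 7063 in A8ko and 4634 in A2ko. The 8 leukocyte markers summed to 43.1 to 51.4 TPM in Control against 68.6 and 67.1 in C9ko, 84.5 in A8ko and 61.4 in A2ko, with 3 of 8 tested (CD68, CD14 and ITGAM). In C9ko CD14 was higher (50.8 and 52.5 TPM against 14.2 to 17.9) and CD68 lower (14.1 and 14.3 TPM against 27.8 to 32.2). ITGAM stood at 0.389, 0.524 and 0.753 TPM in Control and at 1.32 and 1.30 TPM in C9ko. It reached 1 TPM in the C9ko libraries only, so it was tested through them and could only come out higher. CSF1R reached its highest level, 1.33 TPM, in A2ko. PTPRC, LYZ and AIF1 did not exceed 0.0232, 0.0526 and 0.0130 TPM in any library. The 6 fibroblast markers summed to 8.97 to 10.3 TPM in Control and 6.41 to 16.4 TPM in the knockouts, with COL3A1 listed at 0. In C9ko limma called COL1A1 higher (8.07 and 8.61 TPM against 5.82 to 6.81) and LUM lower (0.773 and 0.679 TPM against 2.47 to 2.92). The 5 endothelial markers summed to 3.53 to 4.59 TPM in Control, 22.2 and 30.2 in C9ko, 8.63 in A8ko and 12.8 in A2ko, almost all of it CDH5, with KDR listed at 0. The part of COL1A1, LUM, CDH5, CD68, CD14 and ITGAM in any result was not tested. In a bulk library, more cells with a transcript and more of it per cell cannot be told apart.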

How the data were processed

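RNA of CAL27 cells was measured in 9 samples. The authors deposited TPM per Ensembl gene identifier. Per the labels, polyA RNA was sequenced with a dUTP (strand-marking) library method, and the build hg38 comes from the submitters' processing notes. The aligner, the quantification tool, the annotation and the use of strand are not given in the sources used here. Depth cannot be read from TPM, so counting intervals could not be computed.

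From these values, log2(TPM + 1) was computed for genes with at least 1 TPM in at least 2 of 7 distinct libraries. A gene that reached 1 TPM in a single group passed through that group, which fixed its direction. C9ko was compared with Control by limma 3.58.1 in R 4.3.3 (all 4 groups in the model, moderated variances with a trend). Benjamini-Hochberg adjustment ran over 17100 genes, and genes at an adjusted p under 0.05 were called. A2ko and A8ko, with 1 distinct library each, were compared with the Control range without a test. The fit was tested on simulated data. Symbols were matched for 42165 identifiers, and 57342 had a position in GENCODE release 29 (GRCh38). MicroRNA and promoter sequences are RefSeq's (GRCh38.p14). The 3 members are listed there under newer symbols and were matched by alias.

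The members and gene lists were chosen with earlier results of these data known. Named genes were the members, up to 4 called genes per list with the largest change, complex IV subunits at 5 TPM or more, tested neighbours within 200000 bases of C15orf48, and the 5 genes most like a member that spans at least 1 log2 unit. Alternatives were another pseudocount, 2 rescalings, other filters, a replicate block and leaving out libraries.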

Additional observations from a re-analysis of the deposited data

Results flagged for a closer look

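In 2 gene lists the knockouts lay on opposite sides of all Control libraries, and these differences between knockouts were not tested. The median log2 difference of MT-CO1, MT-CO2 and MT-CO3, taken within each library, was 0.19 in A2ko. This was just above the Control range of -0.0858 to 0.144. The medians of A8ko (-0.20) and of both C9ko libraries (-0.22 and -0.33) were below that range. A2ko and the mean of the C9ko library medians were 0.461 apart. The median of the hypoxia targets was -0.0778 in A2ko, just below the Control range of -0.0572 to 0.0274. It was above that range in A8ko (0.402) and C9ko (0.309 and 0.437), with 0.480 between A2ko and A8ko.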

How the results depend on the processing

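The direction of each member's difference in each knockout was the same under every pseudocount, scaling and left-out library tried. With a pseudocount of 0.1, C15orf48 differed by 1.09, 3.14 and 5.71 (A2ko, A8ko, C9ko), and NDUFA4L2 by -0.43, -1.41 and -1.83. As plain ratios of TPM, an alternative chosen after seeing the data, the log2 values were 1.11, 3.18 and 5.76 for C15orf48 and -0.48, -1.61 and -2.10 for NDUFA4L2. Over nuclear genes only, NDUFA4L2 differed by -1.02 in C9ko. NDUFA4 was at -0.0018 in A8ko without the second Control library and at -0.57 in C9ko with median-of-ratios scaling. The C15orf48 share in C9ko was 35.5% to 36.7% with either library left out.

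The count of called genes in C9ko, 5038, became 8166 with all 9 files as separate libraries and 3248 with the replicate block, and 3301 (without the second C9ko library) to 4174 with a library left out. Among called genes 74.8% were higher, 54.6% with median-of-ratios scaling and 60.7% over nuclear genes only. Complex IV nuclear subunits had 4 calls with all 9 files, 4 under either rescaling, 2 with a mean of at least 5 TPM, and 0 with no filter, no trend or the replicate block, and 0 to 1 with a library left out. The mitochondrial subunits had 2 calls with all 9 files and 1 with a mean of at least 5 TPM. Assembly factors had 4 calls with no filter and 5 to 8 with a library left out. Complex I had 9 with all 9 files, 2 with no filter, no trend or the block, and 1 to 4 with a library left out. Genes outside the Control range and at least 1 log2 unit from its mean became 1813 in A2ko and 1689 in A8ko with a pseudocount of 0.1. They became 575 and 496 with a mean of at least 5 TPM. The causes were not tested. Same-numbered Control and C9ko libraries did not deviate together (r -0.0529 and -0.0124). The deviations of the C9ko libraries from their own mean mirror each other, so these values cannot decide whether the numbers mark a pairing.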
